A study of Cricetulus griseus with 16 samples.

Results

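The 7 genes described here are the complex I subunits that the mitochondrial genome encodes, ND1, ND2, ND3, ND4, ND4L, ND5 and ND6. They were found by their exact names among the 20824 genes counted in RNA of Chinese hamster ovary (CHO) cells, where each name occurred once. The identifiers are ENSCGRG00001000006 (ND1), ENSCGRG00001000010 (ND2), ENSCGRG00001000025 (ND3), ENSCGRG00001000028 (ND4), ENSCGRG00001000027 (ND4L), ENSCGRG00001000032 (ND5) and ENSCGRG00001000033 (ND6). CHO (ATCC CCL-61) is an established epithelial-like line derived from hamster ovary, and all libraries came from this single line, grown in Ham's F-12K medium with fetal bovine serum. Control cells were kept at 37 °C with no heat treatment. Heated cells were held for 1 h at 42.5 °C, or at 40 °C for either 1 h or 6 h. Each group had 4 libraries (replicates A to D), which the study's methods describe as biological repeats. The 37 °C library of replicate D was left out of all comparisons unless it is named, as the study also compared 3 controls, so the controls were replicates A, B and C.

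Complex I, the NADH dehydrogenase of the respiratory chain, takes electrons from NADH, passes them to ubiquinone and uses the energy to pump protons across the inner mitochondrial membrane. Its membrane arm is built around subunits made inside the mitochondrion, while its other subunits are encoded in the nucleus, made in the cytosol and imported. ND1 lies where the membrane arm meets the arm that carries the electrons and helps to form the chamber for ubiquinone. ND2, ND4 and ND5 resemble ion antiporters and form the proton channels along the membrane arm, with ND5 at its far end. ND3, ND4L and ND6 are small subunits that connect ND1 to these channels. Mammalian mitochondrial DNA is read as long transcripts from both of its strands, which are cut into single messengers. ND6 is encoded on the strand opposite to that of the other subunits and lies next to ND5, and ND4L and ND4 overlap on 1 shared messenger. The handling of strand and of overlapping reads in the counting is not given in the sources used here, so counts of ND4L against ND4 and of ND5 against ND6 are uncertain where reads could fall to either gene.

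The libraries held between 10504192 and 14668365 counted reads. Levels are given as CPM, the counts of a gene relative to those of its whole library, after scaling by TMM, a correction for differences in RNA composition, and the scaling factors lay between 0.961 and 1.03. The smallest count of any of the 7 genes in any library was 2211, which puts their counting error between 0.468% and 2.13%. As a check of the cell line, Vim, Anxa2, S100a6 and LGALS1, genes common in cultured adherent cells, had at least 4353 counts in every library. Ptprc and Cd3e of leukocytes and Cdh5 of endothelium had at most 1 count. Fshr and Foxl2 of granulosa cells had 0 counts in every library. Pecam1 of endothelium and Alb of hepatocytes reached at most 4 counts, and Ddx4 of germ cells had 7 to 22 counts (0.618 to 1.84 CPM). In bulk RNA a smaller number of cells and less RNA per cell cannot be told apart. The 37 °C library of replicate D stood apart from the other controls, with chi-square values per degree of freedom of 41.8 to 49.4 against them, compared with 2.55 to 8.02 for all other pairs of libraries within a group.

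Together the 7 genes took 0.821% ± 0.139 (SD, n = 3) of all counts at 37 °C and 0.868% ± 0.0897 (n = 4) after 1 h at 40 °C. They took 1.08% ± 0.117 (n = 4) after 6 h at 40 °C and 1.17% ± 0.0934 (n = 4) after 1 h at 42.5 °C. The 37 °C libraries lay at 0.98% in replicate A, 0.721% in replicate B and 0.762% in replicate C, with exact binomial 95% intervals of 0.975% to 0.985%, 0.716% to 0.725% and 0.757% to 0.767%. These intervals cover counting error only and do not overlap, so the controls differed from each other by more than counting. The 42.5 °C libraries, between 1.05% and 1.27%, lay above every control, while the 40 °C libraries of 6 h began at 0.947%, below control A.

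**Figure D1:**
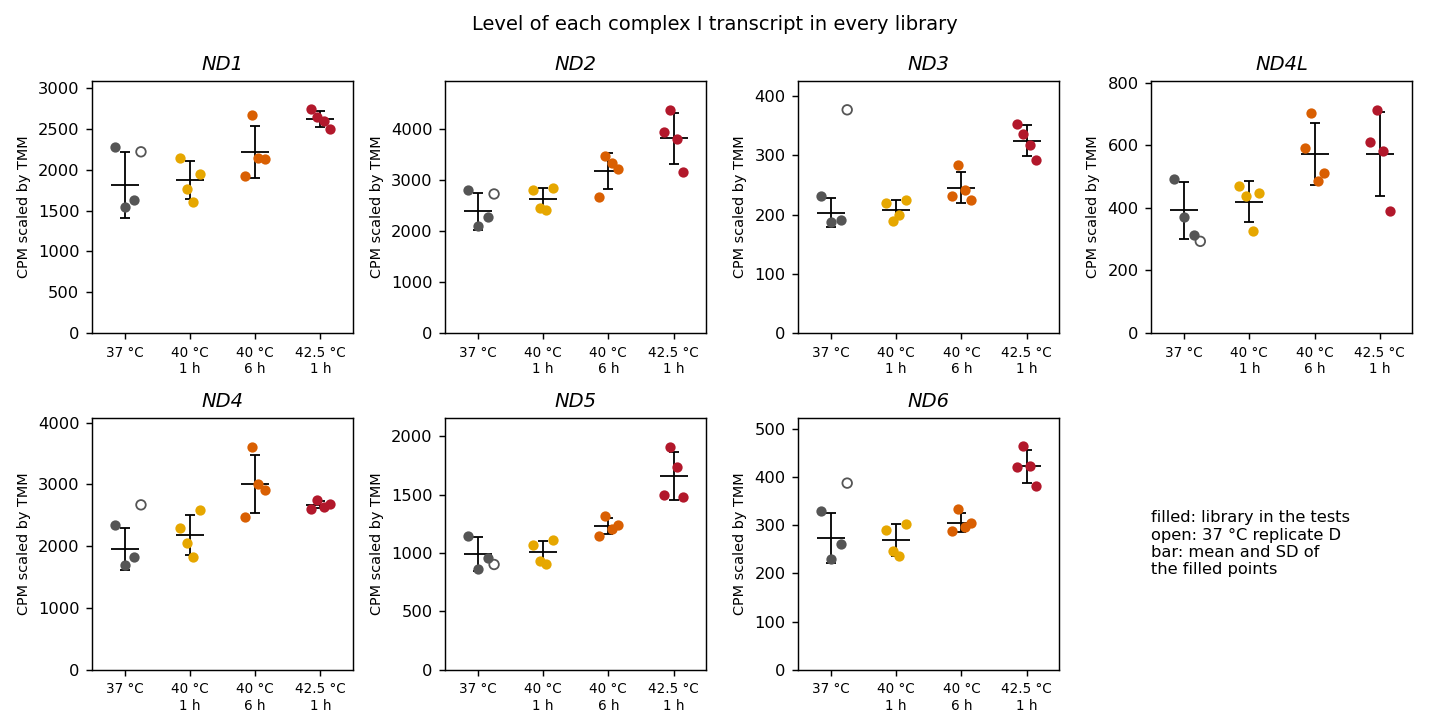
Level of each of the 7 genes, in CPM scaled by TMM, in every library of the 4 groups. Filled points are the libraries compared, with their mean and SD as bars, and the open point is 37 °C replicate D. The 42.5 °C points of ND5 (1480 to 1910 CPM) and ND3 (292 to 353 CPM) lie above the filled points of every other group, whereas those of ND4 (2610 to 2750 CPM) lie within the range after 6 h at 40 °C.

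Cells held for 1 h at 42.5 °C were compared with those at 37 °C first. All 7 genes were higher, by 0.44 to 0.73 on the log2 scale, and 4 of them, ND2, ND3, ND5 and ND6, met the rule for a call used here, a change of 1.5-fold or more together with an adjusted p below 0.05. Across all 10470 genes tested, 2.83% were called higher and 4.68% lower. ND1, ND4 and ND4L passed the adjusted p but not the fold change, so that 7 of 7 were higher by the adjusted p alone, as were 20.8% of all genes. The p-values are from edgeR's quasi-likelihood test over all genes with Benjamini-Hochberg adjustment.

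Among the subunits of the proton channels, ND5 had the largest change. Its level was 1150, 861 and 960 CPM in the 37 °C libraries A to C and 1500, 1910, 1740 and 1480 CPM in the 42.5 °C libraries A to D. The lowest heated library was above the highest control, also above control D at 902 CPM. ND5 rose 1.66-fold, a log2 change of 0.73 (SE 0.09, adjusted p = 1.4e-05).

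ND2 measured 2800, 2100 and 2280 CPM at 37 °C and 3950, 4380, 3810 and 3170 CPM at 42.5 °C. The groups were separate, with heated replicate D closest to the controls, and ND2 rose 1.59-fold (log2 0.67, SE 0.09, adjusted p = 4.67e-05). ND4, the subunit between these in the membrane arm, measured 2340, 1700 and 1820 CPM at 37 °C and 2610, 2750, 2640 and 2690 CPM at 42.5 °C. Its heated libraries were the tightest of the 7 genes, with an SD of 2.33% of the mean, and all lay above controls A to C. Control D, at 2670 CPM, lay within the heated range. The log2 change of ND4 was 0.44 (SE 0.08, adjusted p = 0.000259), under the fold change asked of a call.

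ND1, at the ubiquinone site, measured 2280, 1540 and 1630 CPM at 37 °C and 2740, 2650, 2600 and 2500 CPM at 42.5 °C. The groups did not overlap, and the log2 change was 0.52 (SE 0.09, adjusted p = 0.000346). Control A held the highest 37 °C value here, as it did for all 7 genes among controls A to C.

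The small connecting subunits ND3 and ND6 were called and ND4L was not. ND3 measured 231, 187 and 191 CPM at 37 °C and 353, 336, 317 and 292 CPM at 42.5 °C, a log2 change of 0.67 (SE 0.07, adjusted p = 2.59e-06). ND6, read from the other strand, measured 330, 229 and 261 CPM at 37 °C and 420, 463, 423 and 381 CPM at 42.5 °C, a log2 change of 0.61 (SE 0.09, adjusted p = 6.49e-05). Both genes were higher in every heated library than in controls A to C, but control D was above all heated libraries for ND3, at 377 CPM, and within their range for ND6, at 387 CPM. ND4L measured 493, 370 and 313 CPM at 37 °C and 611, 711, 581 and 390 CPM at 42.5 °C. Heated replicate D of ND4L fell below control A, and the log2 change of 0.54 had the largest SE of the 7 genes in this comparison (0.16, adjusted p = 0.0111).

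In all, 6 of the 7 genes had heated libraries above all of controls A to C, against 23.1% of all genes tested that were separated upwards. With control D counted too, ND3, ND4 and ND6 were no longer separated. The number of calls depended on the libraries used, and the share of all genes called in each of the following fits is not given. Without control A all 7 genes were called, without control B 2 were (ND3 and ND5), without control C 3 were (ND6 was lost), and with control D added 2 were (ND2 and ND5). Without heated replicate D 5 were called, ND4L (0.69) in addition, and ND6 was also lost without heated replicate B (0.57) and without TMM (0.54). With control D added, ND3 had a log2 change of 0.41 (adjusted p = 0.174), ND4 of 0.33 (adjusted p = 0.0998), ND4L of 0.64 (adjusted p = 0.0537) and ND6 of 0.49 (adjusted p = 0.0381).

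**Figure D2:**
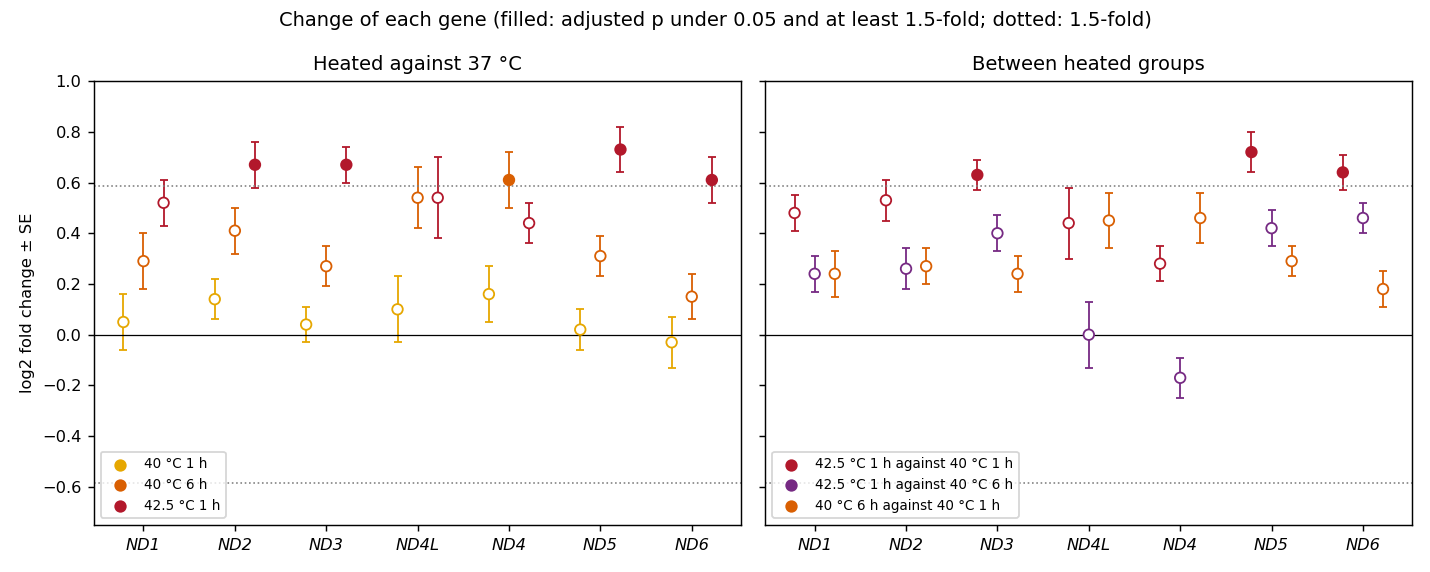
Log2 fold change of each gene with its SE from edgeR, for the 3 heated groups against 37 °C (left) and for the heated groups against each other (right). Filled points changed at least 1.5-fold, the dotted lines, with an adjusted p below 0.05. Against 37 °C, ND2, ND3, ND5 and ND6 are filled at 42.5 °C for 1 h, ND4 is filled at 40 °C for 6 h, and no gene is filled at 40 °C for 1 h.

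Fever-range heat, 40 °C, was compared with the same controls at 1 h and 6 h, so these results and those above share the 3 control libraries. At 1 h none of the 7 genes was called and none was separated from the controls, against 0.276% of 10494 genes called higher and 0.0572% lower, and 6.8% separated upwards. By edgeR 0 of 7 passed either an adjusted or an unadjusted p under 0.05. Of all genes, 1.07% were higher and 0.572% lower by the adjusted p. At the unadjusted p, 837 of 10494 genes were higher and 719 lower. Their log2 changes lay between -0.03 for ND6 (SE 0.10, adjusted p = 0.941) and 0.16 for ND4 (SE 0.11, adjusted p = 0.521). ND4 measured 2290, 2050, 1830 and 2580 CPM in replicates A to D and ND1 2150, 1770, 1610 and 1950 CPM. ND2 measured 2800, 2460, 2420 and 2840 CPM, and ND4L 469, 439, 325 and 446 CPM. The lowest heated library lay below control A for each of these genes, so that all overlapped with the controls. The SEs of 0.07 to 0.13 in this comparison are as large as most of these changes. DESeq2 also called 0 of the 7.

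After 6 h at 40 °C, 1 of the 7 genes, ND4, was called, against 1.45% of 10499 genes called higher and 1.66% lower. ND4 measured 2470, 3610, 3010 and 2910 CPM, all above controls A to C, and it was the only one of the 7 that was separated from them, against 18.6% of all genes. Control D, at 2670 CPM, lay within the heated range. ND4 rose 1.53-fold (log2 0.61, SE 0.11, adjusted p = 0.000451). Its call was lost without control B (log2 0.53), without control C (0.57), without heated replicate B (0.51) and with control D added (0.49, adjusted p = 0.0738).

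ND4L, which shares its messenger with ND4, measured 591, 703, 485 and 510 CPM after 6 h at 40 °C, and its lowest library was just under control A at 493 CPM. Its log2 change was 0.54 (SE 0.12, adjusted p = 0.00354), and it passed the fold change without control A (0.74), without heated replicate C (0.61), without heated replicate D (0.60) and with control D added (0.64, adjusted p = 0.0425). The other 5 genes rose less or not at all by the test. ND2 measured 2680, 3480, 3340 and 3220 CPM and ND5 1150, 1320, 1210 and 1240 CPM after 6 h at 40 °C, each with only replicate A at or below control A. ND3 measured 232, 283, 241 and 225 CPM, with only replicate D below control A. ND2 (log2 0.41, adjusted p = 0.0027), ND5 (0.31, adjusted p = 0.00513) and ND3 (0.27, adjusted p = 0.0137) also passed the adjusted p but not the fold change. Thus 5 of 7 were higher by the adjusted p alone, as were 14.7% of all genes. ND1 (0.29, adjusted p = 0.0651) and ND6 (0.15, adjusted p = 0.192) did not pass. ND1 measured 1920, 2670, 2140 and 2130 CPM and ND6 288, 334, 295 and 304 CPM, and for both only replicate B exceeded control A. With control D added, ND3 had a log2 change of -0.01 (adjusted p = 0.991) at 6 h.

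The heated groups were then compared directly, which tests the difference between treatments and does not use the controls. Temperature at equal time was compared first, 42.5 °C against 40 °C, both for 1 h. All 7 genes were higher at 42.5 °C by the adjusted p, as were 16.4% of all genes, and 3 were called, ND3 (log2 0.63, SE 0.06, adjusted p = 1.47e-06), ND5 (0.72, SE 0.08, adjusted p = 4.76e-06) and ND6 (0.64, SE 0.07, adjusted p = 6.94e-06). Among 10441 genes tested, 1.75% were called higher.

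After 1 h at 40 °C, ND5 measured 1070, 932, 908 and 1110 CPM, ND3 measured 219, 190, 199 and 225 CPM and ND6 measured 290, 247, 235 and 303 CPM. For these 3 genes every 42.5 °C library was above every 40 °C library, and the same held for ND1, ND2 and ND4, so that 6 of 7 were separated, against 16.3% of all genes. ND4 had the smallest change (0.28, adjusted p = 0.00762). Without 42.5 °C replicate D, which had the lowest ND2 and ND4L of its group, 5 genes were called, ND2 (0.62) and ND4L (0.60) in addition. Without 40 °C replicate C, ND6 was no longer called (0.58), and without TMM ND3 was not (0.58).

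Time at equal temperature was compared next, 6 h against 1 h at 40 °C. The 7 log2 changes were all positive, from 0.18 for ND6 to 0.46 for ND4. All 7 had an unadjusted p under 0.05, as did 1718 of 10439 genes in the same direction. By edgeR 0 of 7 were called, against 0.556% of all genes called higher. DESeq2 called 0 too. By the adjusted p alone 5 genes were higher, ND4 (0.46, adjusted p = 0.00579), ND4L (0.45, adjusted p = 0.00918), ND5 (0.29, adjusted p = 0.00458), ND2 (0.27, adjusted p = 0.018) and ND3 (0.24, adjusted p = 0.0222), as were 9.45% of all genes. ND1 (0.24, adjusted p = 0.0709) and ND6 (0.18, adjusted p = 0.0798) did not pass. ND3, ND4L and ND5 were separated between the times, ND3 only barely, with the nearest libraries both at 225 CPM, against 10.9% of all genes separated upwards.

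Last, 42.5 °C for 1 h was compared with 40 °C for 6 h, the treatments with the highest summed levels. By edgeR 0 of the 7 genes were called, against 2.53% of 10427 genes called higher, and DESeq2 called 0 as well. At an unadjusted p under 0.05, edgeR gave 5 higher and 1 lower, against 2726 higher and 2889 lower of the 10427. By the adjusted p alone 5 were higher at 42.5 °C, as were 22.5% of all genes. They were ND6 (0.46, SE 0.06, adjusted p = 6.52e-06), ND5 (0.42, adjusted p = 9.57e-05), ND3 (0.40, adjusted p = 0.000132), ND2 (0.26, adjusted p = 0.0161) and ND1 (0.24, adjusted p = 0.013). ND4 had a negative difference (-0.17, SE 0.08, adjusted p = 0.0709) and ND4L a difference of 0.00 (adjusted p = 0.98). Neither ND4 nor ND4L passed, and their groups overlapped, whereas ND3, ND5 and ND6 were separated, against 20.5% of all genes separated upwards.

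The order of the groups was thus not the same for all 7 genes. For ND3, ND5 and ND6 the 42.5 °C libraries were above those of all other groups, control D aside for ND3 and ND6. The 6 h group at 40 °C came next for ND3 and ND5 by the adjusted p, whereas for ND6 no difference among the remaining groups passed. For ND4 and ND4L the difference between the highest groups, 42.5 °C and the 6 h group at 40 °C, did not pass the test. For ND1 and ND2 the 42.5 °C group was highest, and its difference from the 6 h group passed the adjusted p while single libraries overlapped, with ND1 at 2670 CPM and ND2 at 3480 CPM in replicate B at 6 h.

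The shares of each gene within the summed counts of the 7 do not depend on how libraries are scaled to each other. ND4 made up 24.4% ± 0.0536 (SD, n = 3) of the sum at 37 °C, 25.4% ± 1.35 (n = 4) after 1 h at 40 °C, 27.8% ± 1.07 (n = 4) after 6 h at 40 °C and 22.2% ± 1.69 (n = 4) at 42.5 °C. The lowest 6 h library, at 26.5%, was above the highest 42.5 °C library, at 24.6%. Other groups were not separated in this way. Replicate D of 1 h at 40 °C, at 27.3%, and control D, at 27.9%, lay within the 6 h range. Replicate D at 42.5 °C, at 24.6%, was above controls A to C. The mean share of ND5 ran the other way, with 12.4% ± 0.462 at 37 °C and 13.7% ± 1.01 at 42.5 °C. At 40 °C it was 11.7% ± 0.262 after 1 h and 11.5% ± 0.705 after 6 h. Single libraries overlapped, with 42.5 °C replicate A at 12.3% and control C at 12.9%. As parts of the same sum, the shares of different genes are not independent.

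ND6 made up 3.40% ± 0.116 at 37 °C, 3.12% ± 0.0624 after 1 h and 2.85% ± 0.174 after 6 h at 40 °C, and 3.48% ± 0.0254 at 42.5 °C. Its 42.5 °C libraries, at 3.45% to 3.5%, were above all 40 °C libraries, the highest of which was 3.21%. The shares of ND1, ND2 and ND4L overlapped between 6 h at 40 °C and 42.5 °C, and ND4L had the widest spread within groups, up to 16.7% of its mean.

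**Figure D3:**
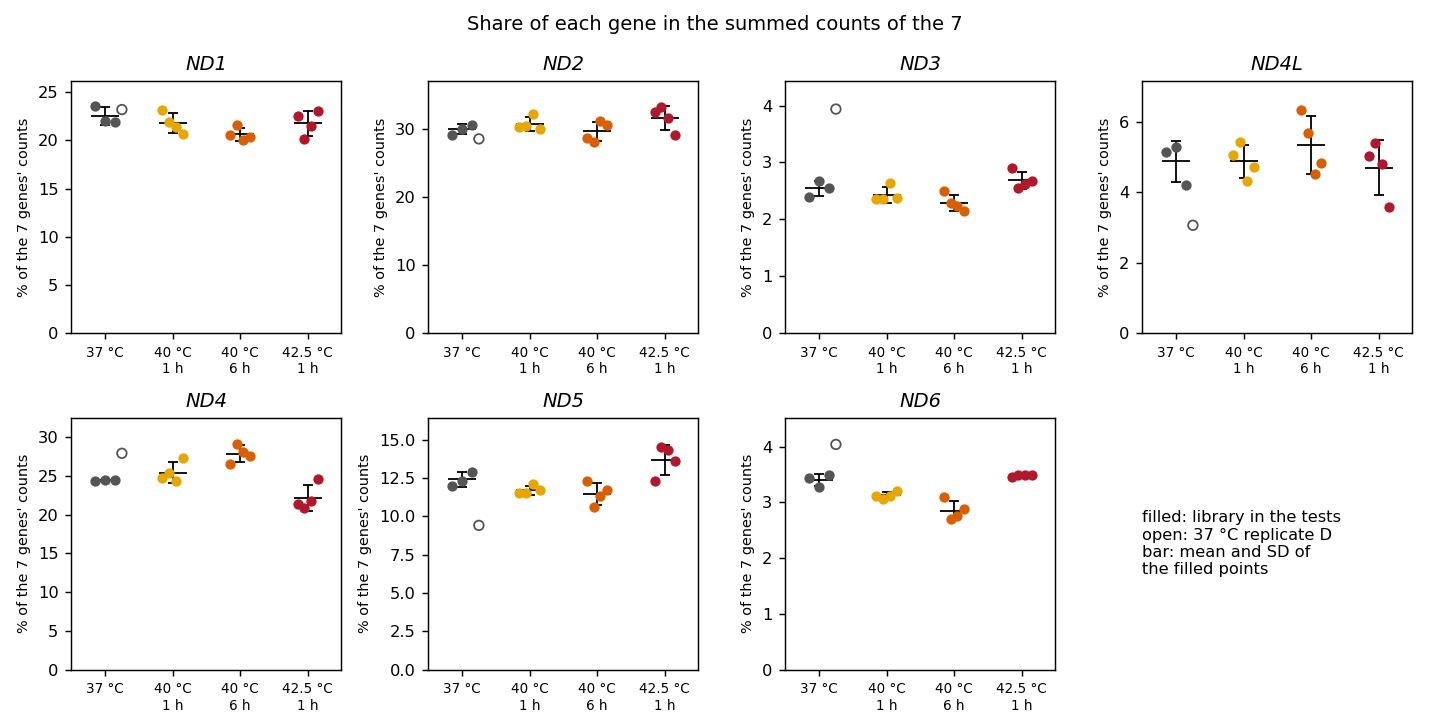
Share of each gene, in percent, in the summed counts of the 7 genes in every library, with mean and SD of the filled points and 37 °C replicate D as the open point. The mean share of ND4 is highest after 6 h at 40 °C (libraries 26.5% to 29.1%) and lowest at 42.5 °C (libraries 20.8% to 24.6%). Single libraries of other groups lie inside these ranges. Replicate D at 37 °C stands apart for ND3, ND4, ND4L, ND5 and ND6.

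Per read of ND4, the number of ND5 reads was 0.507 ± 0.0178 (SD, n = 3) at 37 °C, 0.461 ± 0.0281 after 1 h and 0.415 ± 0.0412 after 6 h at 40 °C, and 0.619 ± 0.0682 at 42.5 °C (n = 4 each). The 42.5 °C libraries lay between 0.551 and 0.695, above the highest of all other libraries, 0.526 in control C. The ratio of ND4L to ND4 was close in all groups, 0.200, 0.192, 0.193 and 0.214 in the same order, with SDs of 0.0205 to 0.0489. The ratio of ND6 to ND5 was 0.275, 0.267, 0.248 and 0.256. Control D differed from every other library in these ratios, with 0.338 for ND5 to ND4, 0.110 for ND4L to ND4 and 0.429 for ND6 to ND5.

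A fit that took the summed counts of all 13 protein-coding mitochondrial genes as library size asked whether a gene changed relative to mitochondrial messengers as a whole. On this scale the median of all genes shifted by -0.64 at 42.5 °C and by -0.34 after 6 h at 40 °C against 37 °C. In the 3 comparisons with 37 °C none of the 7 genes passed the adjusted p. The sum includes the 7 genes, and their SEs were larger on this scale, except for ND4L at 42.5 °C (0.14 against 0.16). For ND4 after 6 h at 40 °C the SE was 0.17 against 0.11. These results therefore do not show that a gene kept pace with the sum. Between 42.5 °C and 40 °C for 6 h, where the median of all genes shifted by -0.30, ND4 was lower at 42.5 °C (log2 -0.46, SE 0.10, adjusted p = 6.77e-05) and so was ND4L (-0.31, SE 0.11, adjusted p = 0.0108). Between 42.5 °C and 40 °C for 1 h, where that median shifted by -0.48, ND5 was higher (0.24, SE 0.11, adjusted p = 0.0293). The Benjamini-Hochberg adjustment of this edgeR fit ran over all genes, which the choice of library size shifts together. Such a shift lowers the p-values of other genes and weakens the adjustment. The adjusted p-values on this scale are therefore weaker evidence than those of the main fits.

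The 7 genes varied more between replicates than most genes of like depth. Their SD of log2 level within groups was between 0.135 for ND3 and 0.298 for ND4L, whereas the median over 2362 genes with at least 1000 counts in every library was 0.0609. Each of the 7 exceeded at least 96.4% of those genes. The deviations went together, with correlations between pairs of the 7 genes of 0.526 to 0.928 over the 15 libraries, and of 0.914 between the mean deviation of the 7 and that of the 6 other mitochondrial genes.

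Control A was 0.28 above its group on the log2 scale, controls B and C were 0.17 and 0.11 below it, and 40 °C replicate B at 6 h was 0.21 above its group. A library that was high for one of these genes was thus mostly high for all mitochondrial messengers. What set the level of a library apart was not tested.

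The 6 other protein-coding genes of mitochondrial DNA encode subunits of complex III (CYTB), complex IV (COX1, COX2, COX3) and ATP synthase (ATP6, ATP8). At 42.5 °C 5 of these 6 were called higher against 37 °C and all 6 passed the adjusted p, with log2 changes of 0.43 to 0.97 and a median of 0.70, compared with 0.61 for the 7 complex I genes and 0.00 for all genes. After 6 h at 40 °C 1 of 6 was called, CYTB (0.68, adjusted p = 8.15e-05), which is named after its value was seen, and the medians were 0.28 for the 6 and 0.31 for the 7. After 1 h at 40 °C edgeR and DESeq2 called 0 of the 6, and their median was 0.16. At an unadjusted p under 0.05, edgeR gave 1 of the 6 as higher, against 837 of 10494 genes.

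The 7 complex I genes made up 32.5% ± 0.537 of the counts of all 13 at 37 °C, 31.4% ± 0.671 after 1 h and 34.5% ± 0.723 after 6 h at 40 °C, and 31.7% ± 1.68 at 42.5 °C. The libraries of 6 h at 40 °C, from 33.5% to 35.2%, were above all libraries of 1 h at 40 °C, which lay between 30.6% and 31.9%. ATP8 followed the mean log2 level of the 7 most closely among the 6 (Pearson r = 0.935) and COX1 least (r = 0.881), over 15 libraries that share the group differences and the deviations above.

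The nuclear partners of the 7 had smaller median changes. Of 37 nuclear genes for complex I subunits, 33 were found and tested, and edgeR and DESeq2 called 0 of them in each comparison with 37 °C. At an unadjusted p under 0.05, edgeR gave 17 higher and 3 lower at 42.5 °C, against 2586 and 2719 of 10470 genes. After 6 h at 40 °C it gave 5 higher and 5 lower, against 2145 and 2155 of 10499. After 1 h at 40 °C it gave 5 higher and 0 lower, against 837 and 719 of 10494. By the adjusted p alone 12 of 33 were higher and 2 lower at 42.5 °C, against 20.8% of all genes higher and 22.3% lower, and the median log2 change was 0.11 within a range of -0.35 to 0.58, the value of NDUFA1, just short of 1.5-fold. The 2 lower genes, both of the membrane arm and named after their values were seen, were Ndufc2 (-0.35, adjusted p = 3.46e-05) and NDUFB11 (-0.13, adjusted p = 0.0363). After 6 h at 40 °C 3 were higher and 1 lower, against 14.7% and 14.8% of all genes, with a median of -0.01. The 3 were Ndufa7 (0.24), Ndufb9 (0.20) and Ndufv2 (0.18), and the lower gene was Ndufb7 (-0.34), all chosen for naming after their values were seen. After 1 h at 40 °C none passed the adjusted p and the median was 0.02.

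Assembly factors of complex I help to put the subunits together and are not part of the finished enzyme. Of 20 listed, 17 were found, edgeR and DESeq2 called 0 in each comparison with 37 °C, and the median log2 changes were 0.01, -0.05 and -0.03 for 40 °C at 1 h, 40 °C at 6 h and 42.5 °C. At an unadjusted p under 0.05, edgeR gave 3 higher and 2 lower at 42.5 °C, against 2586 and 2719 of 10470 genes. After 6 h at 40 °C it gave 4 higher and 5 lower, against 2145 and 2155 of 10499. After 1 h at 40 °C it gave 1 and 1, against 837 and 719 of 10494. By the adjusted p alone 3 of 17 were higher and 2 lower at 42.5 °C, against 20.8% and 22.3% of all genes. They are again named after their values were seen. The higher genes were Ndufaf4 (0.39), Tmem126b (0.28) and Ndufaf5 (0.22), and the lower were Tmem186 (-0.43) and Ndufaf3 (-0.28). After 6 h at 40 °C Ndufaf5 (0.31), Ndufaf7 (0.26) and Tmem126b (0.19) were higher and Ndufaf3 (-0.35) and Acad9 (-0.21) were lower by the same criterion. Of all genes, 14.7% were higher and 14.8% lower in that comparison.

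The genes for transcription and handling of mitochondrial RNA are nuclear as well. Of 27 listed, 22 were found, and 1 was called, Polrmt, the RNA polymerase of mitochondria, which was lower at 42.5 °C. In that comparison 4.68% of all genes were called lower. Polrmt measured 106, 107 and 100 CPM in controls A to C and 73.0, 67.5, 69.3 and 61.3 CPM in the 42.5 °C libraries, while control D measured 88.4 CPM. All heated libraries were below all controls, and the log2 change of Polrmt was -0.63 (SE 0.06, adjusted p = 5.47e-07). Its fold change no longer reached 1.5 with control D added (-0.57) or without heated replicate D (-0.58). At 40 °C its change against 37 °C was -0.10 (adjusted p = 0.454) after 1 h and -0.06 (adjusted p = 0.446) after 6 h.

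At 42.5 °C 8 of the 22 genes were higher and 5 lower by the adjusted p alone, Polrmt among the latter, with a median of 0.12. By the same criterion 20.8% of all genes were higher and 22.3% lower. After 6 h at 40 °C 7 were higher and 1 lower, against 14.7% and 14.8% of all genes, and the median was 0.02. The lower gene was Fastk (-0.48, adjusted p = 0.00183, named after its value was seen). At 1 h edgeR gave 0 past the adjusted p, with 2 higher and 2 lower at an unadjusted p under 0.05, and DESeq2 called 0. Of all 10494 genes in that comparison, 837 were higher and 719 lower at the unadjusted p.

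**Figure D4:**
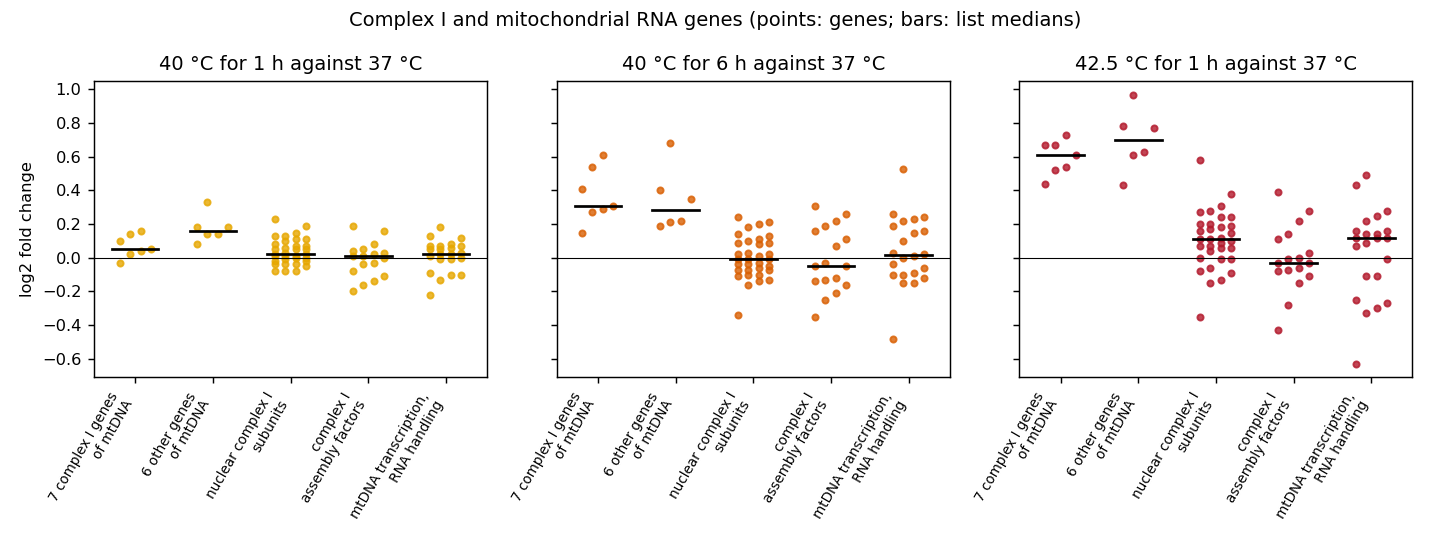
Log2 fold change against 37 °C of the 7 complex I genes of mitochondrial DNA, its 6 other protein-coding genes, and nuclear genes for complex I subunits (33), assembly factors (17) and mitochondrial RNA handling (22), with bars at the medians. At 42.5 °C the medians are 0.61, 0.70, 0.11, -0.03 and 0.12 in that order, and after 1 h at 40 °C no median exceeds 0.16.

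Outside mitochondrial DNA, the genes whose log2 levels followed the mean of the 7 most closely over the 15 libraries were searched among 10566 genes. The closest were known by identifier only, ENSCGRG00001013403 (Pearson r = 0.929, Spearman rho = 0.964) and ENSCGRG00001019431 (r = 0.912, rho = 0.889), and another such gene had r = 0.891. They were followed by Neo1, a receptor for guidance cues (r = 0.882, rho = 0.889), and Crtc3, a coactivator of CREB (r = 0.881, rho = 0.836). These coefficients describe libraries that differ by group and are given without a test.

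ENSCGRG00001013403 measured 172, 121 and 144 CPM in controls A to C, 167, 148, 140 and 175 CPM after 1 h at 40 °C, 189, 197, 185 and 182 CPM after 6 h at 40 °C and 286, 319, 307 and 260 CPM at 42.5 °C. It was highest in control A among the controls, as were the 7 genes, and its log2 change at 42.5 °C was 1.00 (SE 0.09, adjusted p = 5.81e-07). Neo1 and Crtc3 changed less than the 7, each by 0.31 at 42.5 °C (adjusted p = 3.45e-05 and 0.000334). These genes were picked for following the 7 over the same libraries. A shared peak in control A or rise at 42.5 °C is therefore no further evidence of likeness.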

How the data were processed

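RNA of CHO cells was sequenced as paired-end libraries made with a TruSeq RNA kit from total RNA. The authors trimmed and mapped the reads to CHOK1GS_HDv1 and counted them per gene with CLC Genomics Workbench, and they deposited raw counts, without normalization, for 16 libraries. The 37 °C library left out is the one whose counts are not printed in the study's supplementary table, where 920 of 920 compared genes were identical for each of the other 15.

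The tests used R 4.3.3 and edgeR 4.0.16 (quasi-likelihood test, filterByExpr, TMM, libraries of the 2 groups, Benjamini-Hochberg over all genes tested), and genes were called at a change of 1.5-fold or more with an adjusted p below 0.05. SEs are the log2 change divided by the square root of the F statistic. Log2 levels used a prior count of 2. Scripts were tested on simulated data. Alternatives were DESeq2 1.42.0, other scalings, filters and thresholds, all 4 controls, a replicate block and leaving out each library. All 7 genes are named, with called genes of the listed groups and the 5 nearest in pattern. The 7 genes, the lists and the tests were chosen with earlier results of these data known.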

Additional observations from a re-analysis of the deposited data

Results flagged for a closer look

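In 60 groups of 4 libraries checked for a library far from the rest, of which chance alone flags about 1 in 20, there were 2 cases. The share of ND3 in the summed counts of the 7 genes after 1 h at 40 °C was 2.64% in replicate C (exact binomial 95% interval 2.54% to 2.75%), and 2.35% to 2.38% in the other 3 libraries. The share of ND4 at 37 °C was 27.9% in replicate D (27.6% to 28.2%) and 24.3% to 24.5% in the other 3.

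The effects of 42.5 °C and 40 °C, both for 1 h, differed by 1.5-fold or more for 3 genes in the direct test of the heated groups, edgeR's quasi-likelihood test with Benjamini-Hochberg adjustment, which all 7 genes passed by the adjusted p alone. The differences were 0.63 for ND3, 0.72 for ND5 and 0.64 for ND6 on the log2 scale, each higher in 4 of 4 libraries at 42.5 °C than in any of the 4 at 40 °C.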

How the results depend on the processing

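Depth did not limit these values, since counting error was at most 2.13% per gene and library. The spread between replicate libraries was larger, and whether it arose in the cultures or in the preparation was not tested. By the adjusted p alone, with no fold change asked, the number of the 7 genes called was 5 after 6 h at 40 °C and 7 at 42.5 °C against 37 °C, 7 for 42.5 °C against 40 °C for 1 h, 5 for 42.5 °C against 40 °C for 6 h and 5 for 6 h against 1 h at 40 °C. In the same way it was 4 of the other mitochondrial genes after 6 h at 40 °C, and, after 6 h at 40 °C and at 42.5 °C, 4 and 14 nuclear subunits, 5 and 5 assembly factors, and 8 and 13 RNA handling genes. By the same criterion 14.7% of all genes were higher and 14.8% lower after 6 h at 40 °C. At 42.5 °C these shares were 20.8% and 22.3%. With edgeR's glmTreat, which tests whether a change exceeds 1.5-fold, 0 of the 7 genes were called after 6 h at 40 °C, 0 at 42.5 °C and 0 for 42.5 °C against 40 °C for 1 h, and 0 and 1 of the other mitochondrial genes and 0 RNA handling genes at 42.5 °C were called. The genes called at 42.5 °C by the rule therefore passed 1.5-fold as estimates, and none of the 7 was shown to exceed it. Shares of all genes called are given for the rule and for the adjusted p alone. They are not given for glmTreat or for the settings below, so those counts have no such background beside them.

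With all 4 controls, 2 of the 7 were called at 42.5 °C, and of the other lists 0 mitochondrial genes after 6 h at 40 °C, 2 at 42.5 °C and 0 RNA handling genes at 42.5 °C. With them ND1 was -0.03 and ND3 -0.24 after 1 h at 40 °C, and ND3 was -0.01 after 6 h. Without TMM 3 of the 7 and 3 of the other mitochondrial genes were called at 42.5 °C, ND6 falling short (0.54), and 2 of the 7 for 42.5 °C against 40 °C for 1 h, ND3 falling short (0.58). The difference of ND4L between 42.5 °C and 40 °C for 6 h was 0.00 with the opposite sign under DESeq2's size factors, under DESeq2's Wald test and in 1 fit over all 4 groups. The cause of these changes was not tested.

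With the 13 mitochondrial genes as library size, a change of the reference and not of the counts, log2 changes of ND1, ND2, ND3, ND4, ND4L, ND5 and ND6 in that order were -0.10, -0.01, -0.11, 0.01, -0.05, -0.13 and -0.17 after 1 h at 40 °C, -0.04, 0.07, -0.06, 0.28, 0.23, -0.02 and -0.16 after 6 h at 40 °C, and -0.09, 0.04, 0.04, -0.18, -0.08, 0.11 and 0.00 at 42.5 °C. For 42.5 °C against 40 °C for 1 h they were 0.01, 0.06, 0.16, -0.19, -0.03, 0.24 and 0.17, and against 40 °C for 6 h -0.05, -0.03, 0.10, -0.46, -0.31, 0.12 and 0.16. For 6 h against 1 h at 40 °C all 7 stayed positive, from 0.01 to 0.27.

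Same-letter libraries of different groups had a mean correlation of deviations, over 10547 genes, of 0.05 over 21 pairs (-0.05 to 0.18, 5 pairs over 0.1). For different letters the mean was -0.02 over 63 pairs (-0.22 to 0.17, 11 pairs over 0.1). The letters were not taken to pair the samples, although this check cannot exclude a weak pairing. In the fit with the replicate block, 2 of the 7 were called after 6 h at 40 °C and 5 at 42.5 °C, 1 nuclear subunit was called at 42.5 °C, and ND5 was -0.03 after 1 h at 40 °C.

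Leaving out 1 library at a time gave 0 to 2 of the 7 called after 6 h at 40 °C, 2 to 7 at 42.5 °C and 2 to 5 for 42.5 °C against 40 °C for 1 h. It gave 3 to 5 other mitochondrial genes, 0 to 1 nuclear subunits and 0 to 1 RNA handling genes at 42.5 °C. The log2 changes after 1 h at 40 °C ranged from -0.06 to 0.24 for ND1, -0.02 to 0.14 for ND3, -0.04 to 0.30 for ND4L, -0.07 to 0.14 for ND5, -0.14 to 0.14 for ND6 and 0.00 to 0.25 for ENSCGRG00001013403, and from 0.00 to 0.03 for the gene with r = 0.891 to the mean of the 7. ND4L between 42.5 °C and 40 °C for 6 h ranged from -0.12 to 0.14.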
